A study of Rattus norvegicus with 57 samples.

Results

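The comparison described here is that of rat liver given methapyrilene at 30 mg/kg/day, taken on day 15 as labelled, with vehicle-treated liver of the same day. It uses 10 of the 57 arrays of the study, 5 treated and 5 control, chosen by dose and day as labelled, and 10725 genes passed the filter on low signals. Each array holds the liver RNA of 1 animal hybridised to the Affymetrix Rat Genome 230 2.0 chip, and its values are MAS5 signals, scaled intensities that have no unit. The animals were male Han Wistar rats, Crl:WI(Han), 8 to 10 weeks old and housed singly, with 6 rats planned per group. Controls received the vehicle, carboxymethylcellulose, by the same oral route. Other groups used below are 80 mg/kg/day on day 15 (5 arrays) and 30 mg/kg/day with its own controls on day 4 or day 8 (5 and 5 arrays each). The last are 30 mg/kg/day and its controls on day 24 (4 and 4 arrays), which followed 14 days of dosing and 10 days of recovery. The time of day at which livers were taken is not given in the sources used here.

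Methapyrilene is an antihistamine that was withdrawn from use after it caused liver tumours in rats, and in rat liver it is known as a hepatotoxicant that harms mitochondria and injures the periportal zone. When amino acids run short or mitochondria or the endoplasmic reticulum are stressed, kinases phosphorylate the translation factor eIF2 alpha, general translation slows, and the transcription factor ATF4 is translated. ATF4 then switches on genes for amino acid synthesis and uptake and for the hormone FGF21, which the liver releases into blood. A separate system, the transcription factor NRF2, switches on detoxifying enzymes, and the unfolded protein response switches on chaperones of the endoplasmic reticulum.

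Several arrays stood apart and are described before the results. The 30 mg/kg replicates 1 and 2 lay closer to each other than any other of the 1596 pairs of arrays in the study. Over the 5289 genes with a mean signal above 100, the log2 differences between these arrays had an SD of 0.132, against 0.208 for the next closest pair and a median of 0.295 over the same-group pairs. Only 1 gene differed more than 2-fold between them, where every other same-group pair had at least 13. Their values were not identical, and whether they come from 1 animal could not be tested. All 5 arrays were kept in the fit, and the main counts are also given with replicates 1 and 2 averaged and counted as 1 sample. The 30 mg/kg replicate 4 was the array in which the response was smallest over the genes called up. Its median difference from the control mean over these genes was 0.42 (log2), against 0.49 to 0.59 in the other 4 treated arrays. Those genes were called from the same arrays, replicates 1 and 2 among them, so this order of arrays is not independent of the calls. In single genes such as Fgf21 and Ddit4, replicate 4 was not the lowest treated array. Array number limits the precision of every value. The labels call the replicates biological and house the rats singly, so p-values measure the spread between animals only if replicates 1 and 2 are different animals.

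**Figure D1:**
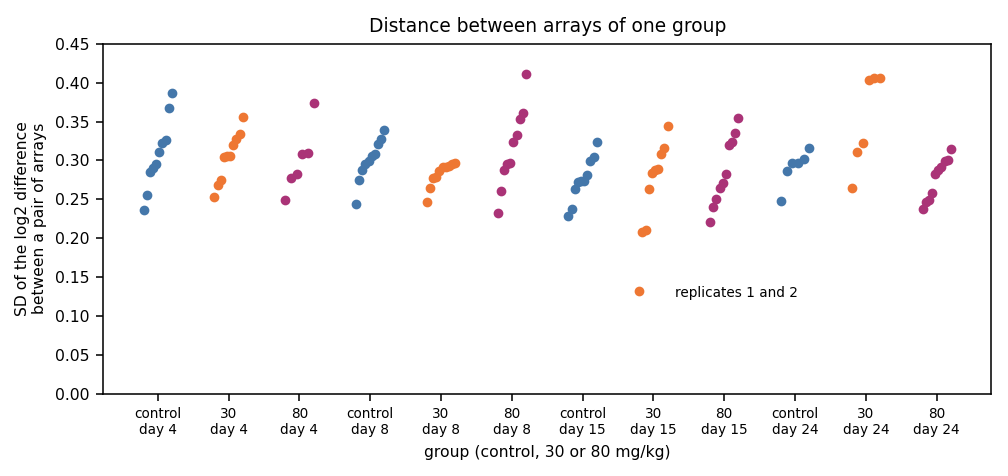
Each point is 1 pair of arrays of the same group; the y axis gives the SD of the log2 difference between the arrays over genes with a mean signal above 100, and the x axis gives the group, as control, 30 or 80 mg/kg/day on each day. The pair of 30 mg/kg replicates 1 and 2 on day 15 lies at 0.132, below all other pairs.

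On day 15 the liver of rats given 30 mg/kg changed in 493 of 10725 genes (4.6%), of which 291 rose (2.71%) and 202 fell (1.88%). A gene is called here when its adjusted p is under 0.05 in limma's moderated test, with Benjamini-Hochberg adjustment over all genes. With replicates 1 and 2 averaged, 271 genes were called, 174 up and 97 down, and 269 of them were among the 493. Most changes were small: 71 rises and 17 falls exceeded 2-fold, and the median log2 difference over all genes was 0.0081. In 396 genes (3.69%) every treated array lay above every control array and in 306 (2.85%) every treated array lay below, and 202 of the rises and 118 of the falls were so separated. Among called genes whose groups did not overlap, ranked after a small offset was added to all signals, the first 5 rises were the hormone gene Fgf21, the serine synthesis gene Phgdh, the circadian gene Noct and the stress genes Ddit4 and Trib3.

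**Figure D2:**
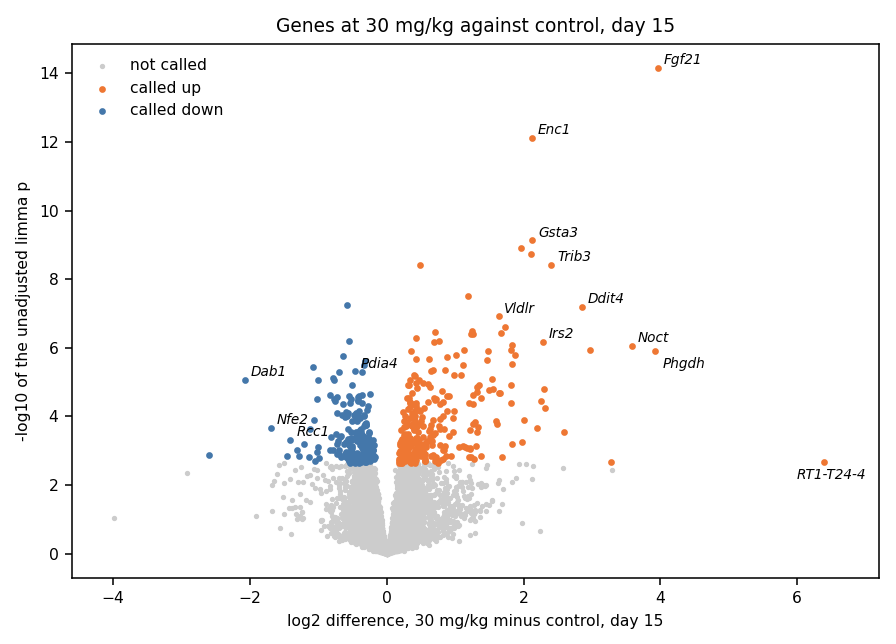
Each point is 1 of 10725 genes; the x axis gives the log2 difference of 30 mg/kg from control on day 15 and the y axis the -log10 of the unadjusted limma p. Fgf21 lies at 3.97 among the rises and Dab1 at -2.07 among the falls.

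Fgf21, on chromosome 1, encodes a liver hormone of fasting and stress. Its signals were 28.2, 27.8, 34.3, 24.2 and 35 in control replicates 1 to 5 and 342, 355, 349, 551 and 921 in treated replicates 1 to 5. The lowest treated array was far above the highest control, and replicates 4 and 5 were the highest of the treated arrays. The log2 difference was 3.97 ± 0.36 (SE), adjusted p = 7.57e-11, a 15.7-fold rise. Trib3, on chromosome 3, encodes a pseudokinase induced by ATF4. It read 64, 76.1, 62, 61.6 and 52.1 in controls and 356, 289, 198, 352 and 566 in treated liver, a log2 difference of 2.41 ± 0.34 (SE), adjusted p = 6.12e-06. The groups did not overlap, and replicate 3 was the lowest treated array.

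Enzymes of serine and asparagine synthesis rose together with these genes. Phgdh, on chromosome 2, the first enzyme of serine synthesis from glucose, was at 11, 5.84, 1.52, 5.74 and 6.03 in controls, close to the lower limit of the chip, and at 72.3, 63.9, 69, 84.7 and 98.1 in treated arrays. All 5 treated arrays lay above all controls, with a log2 difference of 3.92 ± 0.71 (SE), adjusted p = 0.000449, whose size is uncertain because the control signals are so low. The filter asks for at least 4 arrays above the median of all signals, 17.09. In Phgdh the treated arrays alone met this and no control of day 15 exceeded that level. Its separation and p-value are therefore not independent of the filter. Psat1, the next enzyme of the same pathway, read 81.5, 30.1, 32.5, 48.9 and 38.9 in controls and 118, 113, 119, 118 and 145 in treated liver (1.497 ± 0.32 (SE), adjusted p = 0.00255). Asns, asparagine synthetase, read 29.4, 19.4, 25.4, 24.4 and 22.7 in controls and 72.7, 60.8, 63.8, 80.6 and 75.1 in treated liver (1.55 ± 0.32 (SE), adjusted p = 0.00239). In each of these 3 genes the treated arrays were tightly grouped and did not overlap the controls. Psph, which completes serine synthesis, was not called.

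Of 29 measured genes on the list of ATF4 targets and the amino acid response, 14 were called up and none down, beside 2.71% of all genes called up. The same 14 were called with replicates 1 and 2 averaged, and leaving out any 1 array left 13 or 14. The median log2 difference over the list was 0.69, against 0.0081 over all genes, and 26 of the 29 lay above 0. The list was drawn up with earlier results of these data known, so its direction is not independent evidence. Transporters were among its members: Slc7a1, which carries arginine and lysine, read 10.8 to 22.2 in controls and 27.9 to 58.9 in treated liver (1.35 ± 0.28 (SE), adjusted p = 0.00201), and Slc3a2, the shared heavy chain of amino acid exchangers, 417 to 555 in controls and 692 to 811 in treated liver (0.62 ± 0.12 (SE), adjusted p = 0.000642). Aldh18a1, of proline synthesis, differed by 1.01 ± 0.18 (adjusted p = 0.000564), and Vldlr, a lipoprotein receptor, by 1.63 ± 0.27 (adjusted p = 0.000119). Chac1, which degrades glutathione, read 84, 188, 144, 543 and 359 in controls and 706, 774, 1692, 1308 and 936 in treated liver (2.26 ± 0.499 (SE), adjusted p = 0.00384), and control replicates 4 and 5 were the highest of the controls. Ddit4, an inhibitor of mTORC1, read 60.1, 48.3, 70.3, 89.6 and 89 in controls and 360.3, 407, 644, 610.3 and 562 in treated liver (2.86 ± 0.45 (SE), adjusted p = 7.01e-05). Atf3, a stress transcription factor, read 12.9, 16.9, 19.2, 53 and 29.4 in controls and 94.7, 109, 142, 94.9 and 95.2 in treated liver (2.20 ± 0.55 (SE), adjusted p = 0.0127). Mthfd2, a mitochondrial folate enzyme, had a call that rested on single arrays: its signals overlapped, at 1.99 to 18.4 in controls and 5.58 to 32.4 in treated liver, and 7 of the 10 fits without 1 array did not call it. Atf4 itself, which is controlled chiefly through translation, was not called at 0.11 ± 0.12 (adjusted p = 0.705), nor was Ddit3, encoding the factor CHOP, at 0.77 ± 0.26 (adjusted p = 0.0682). On the separate list of aminoacyl-tRNA synthetases 1 of 19 measured genes was called up, Yars1, beside 2.71% of all genes called up. Its median was 0.042, 14 of the 19 lay above 0, and with replicates 1 and 2 averaged none was called.

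The binding sequence of ATF4 dimers with C/EBP proteins was looked for in RefSeq promoter windows of build GRCr8, each 300 bases from 250 before to 50 after the annotated start, with a window found for 8980 of the genes tested. The core TGATGNAA, on either strand, was in 2.08% of the windows of genes tested and in 3.82% of all 27457 windows. Among the ATF4-list genes called up, 5 of the 12 with a window held it, namely Chac1, Fgf21, Nupr1, Slc7a1 and Trib3. Over all 261 rises with a window the share was 5.75% (15 genes), and over 167 falls 1.8% (3 genes). A match is a description of letters and not a measured binding site, and genes were put on the list partly because ATF4 is known to bind near them. Of these, 4 windows are shown because they belong to genes that the comparison turns on, with the match in capitals, read on either strand. The Fgf21 window is chr1:105221327-105221626 on the minus strand, that of Trib3 chr3:161275484-161275783 on the minus strand, that of Chac1 chr3:126795881-126796180 on the plus strand and that of Nupr1 chr1:190645852-190646151 on the minus strand. The matches begin 143, 21, 167 and 55 bases before the annotated start.
Fgf21: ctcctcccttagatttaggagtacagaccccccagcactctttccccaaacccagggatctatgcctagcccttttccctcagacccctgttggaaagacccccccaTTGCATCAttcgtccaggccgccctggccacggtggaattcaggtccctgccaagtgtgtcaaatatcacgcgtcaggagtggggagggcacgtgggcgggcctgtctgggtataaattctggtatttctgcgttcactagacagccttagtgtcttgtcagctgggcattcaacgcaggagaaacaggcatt
Trib3: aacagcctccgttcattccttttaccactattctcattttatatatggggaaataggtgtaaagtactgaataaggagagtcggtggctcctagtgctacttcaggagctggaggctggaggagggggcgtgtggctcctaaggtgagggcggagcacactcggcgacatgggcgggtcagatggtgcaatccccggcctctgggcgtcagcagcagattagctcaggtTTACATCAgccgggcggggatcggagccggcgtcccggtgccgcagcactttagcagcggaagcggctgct
Chac1: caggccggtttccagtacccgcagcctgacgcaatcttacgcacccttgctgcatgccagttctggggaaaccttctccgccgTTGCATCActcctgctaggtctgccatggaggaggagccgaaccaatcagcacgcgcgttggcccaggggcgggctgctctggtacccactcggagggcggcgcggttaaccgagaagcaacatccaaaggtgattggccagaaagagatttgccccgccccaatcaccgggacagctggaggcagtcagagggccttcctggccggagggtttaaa
Nupr1: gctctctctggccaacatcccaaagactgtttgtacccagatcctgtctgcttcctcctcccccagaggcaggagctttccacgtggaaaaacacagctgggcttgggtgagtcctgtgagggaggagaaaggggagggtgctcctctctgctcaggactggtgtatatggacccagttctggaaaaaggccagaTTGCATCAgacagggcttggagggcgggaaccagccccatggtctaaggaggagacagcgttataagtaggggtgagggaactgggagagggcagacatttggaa

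Nupr1, on chromosome 1, encodes a small stress-induced chromatin protein. It read 415, 139, 152, 198 and 215 in controls and 517, 550, 426, 586 and 843 in treated liver, a log2 difference of 1.47 ± 0.28 (SE), adjusted p = 0.000674. Control replicate 1 was the highest control and lay just under the lowest treated array.

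Detoxifying enzymes rose in part. Gsta3, a glutathione transferase on chromosome 9, read 158, 128, 77.4, 137 and 131 in controls and 555, 529, 628, 344 and 709 in treated liver (2.13 ± 0.28 (SE), adjusted p = 2.67e-06). Akr7a3, an aldehyde reductase that acts on aflatoxin aldehyde, read 948, 696, 702, 757 and 672 in controls and 1945, 1850, 1745, 905 and 2110 in treated liver (1.13 ± 0.20 (SE), adjusted p = 0.000449). Aldh1a1, a retinaldehyde dehydrogenase, read 672, 350, 359, 262 and 333 in controls and 1360, 1413, 1150, 759 and 1402 in treated liver (1.66 ± 0.28 (SE), adjusted p = 0.000257). In all 3 genes replicate 4 was the lowest treated array, and in Akr7a3 it lay below control replicate 1. The NRF2 and oxidative stress list had 32 measured genes, of which 3 rose, the genes just named, and 1 fell, Osgin1, beside 4.6% of all genes called. Its median was 0.11. The NRF2 target used most often as a marker, Nqo1, read 165, 501, 179, 228 and 248 in controls and 201, 200.4, 186, 284 and 264 in treated liver, with overlapping groups (-0.12 ± 0.38 (SE), adjusted p = 0.905). Gclc, the catalytic subunit for glutathione synthesis, was not called either (0.18 ± 0.14 (SE), adjusted p = 0.538). Osgin1 read 1809, 1165, 1345, 1095 and 795 in controls and 549.8, 562, 569.6, 362 and 746 in treated liver (-1.14 ± 0.34 (SE), adjusted p = 0.0388), and its call was lost with replicates 1 and 2 averaged (adjusted p = 0.0703) and in 8 of 10 fits without 1 array.

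The core of the antioxidant response element that NRF2 binds, TGACNNNGC on either strand, was in 14.8% of the windows of genes tested, 17.2% of those of the rises and 14.4% of those of the falls. Of the 3 NRF2-list genes that rose only Gsta3 held it, beginning 17 bases before the annotated start in the window chr9:31154739-31155038 on the plus strand, which is shown with the match in capitals.
Gsta3: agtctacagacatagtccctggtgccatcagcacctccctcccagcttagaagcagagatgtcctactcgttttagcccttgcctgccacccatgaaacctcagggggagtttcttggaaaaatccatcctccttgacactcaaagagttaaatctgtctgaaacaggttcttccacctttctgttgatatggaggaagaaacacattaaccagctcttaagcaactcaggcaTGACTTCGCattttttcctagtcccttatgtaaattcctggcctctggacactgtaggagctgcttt

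Chaperones of the endoplasmic reticulum and of mitochondria moved in opposite directions, both by small amounts. On the endoplasmic reticulum list 6 of 24 measured genes fell and none rose, beside 1.88% of all genes called down. With replicates 1 and 2 averaged 4 fell, without 1 array 3 to 8 fell, and with arrays scaled to a common median 2 fell. The list's median was -0.20, and 23 of its 24 genes lay below 0, so the direction was shared by genes that were not called. Pdia4, a disulfide isomerase, read 2124, 2155, 2757, 2839 and 2866 in controls and 1773, 1705, 1842, 2025 and 1825 in treated liver (-0.46 ± 0.091 (SE), adjusted p = 0.00114), with every treated array below every control. Calr, the calcium-binding chaperone calreticulin, read 1571, 1407, 1522, 1532 and 1713 in controls and 1079, 1088, 1216, 1293 and 1092 in treated liver (-0.43 ± 0.094 (SE), adjusted p = 0.00382), again without overlap. Pdia6, another isomerase, differed by -0.26 ± 0.067 (adjusted p = 0.0158), and Derl1, of the export channel for misfolded proteins, by -0.20 ± 0.054 (adjusted p = 0.0203). The call of Derl1 was lost with the mean of probe sets (-0.12, adjusted p = 0.193) and with a common median (adjusted p = 0.127). It was also lost when only the groups compared were fitted (adjusted p = 0.0523). Without 1 array, Derl1 was lost in 3 of 10 fits and Pdia6 in 2 of 10. Hyou1 and Pdia3 were the other 2 called genes, at -0.66 and -0.29, and both calls were lost with replicates 1 and 2 averaged (adjusted p = 0.106 and 0.0611). The main chaperone of this compartment, Hspa5, read 3826, 4335, 4942, 4932 and 4468 in controls and 4073, 4003, 4068, 4523 and 4122 in treated liver and was not called (-0.11 ± 0.075 (SE), adjusted p = 0.46). Xbp1, a transcription factor of the unfolded protein response, was not called (-0.24 ± 0.17 (SE), adjusted p = 0.471), and treated replicate 4, at 2687, 2555, 2599, 4095 and 2302 in replicate order, was the highest of all arrays of both groups.

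On the list of mitochondrial chaperones and proteases 6 of 15 genes rose and none fell, beside 2.71% of all genes, and all 15 lay above 0 with a median of 0.16. With replicates 1 and 2 averaged 3 rose, without 1 array 3 to 6 rose, and with a common median 2 rose. Hspa9, the mitochondrial member of the Hsp70 family, read 1616, 1319, 1462, 1590 and 1348 in controls and 2069, 2150, 2237, 1602 and 1882 in treated liver (0.43 ± 0.098 (SE), adjusted p = 0.00475). Clpp, a matrix protease, read 214, 206, 204, 226 and 211 in controls and 279, 258, 288, 242 and 269.5 in treated liver (0.33 ± 0.072 (SE), adjusted p = 0.0034), and here the groups did not overlap. Dnaja3, a partner of Hspa9, read 341, 331, 371, 327 and 346 in controls and 455, 450.1, 412, 394 and 423 in treated liver (0.31 ± 0.071 (SE), adjusted p = 0.00536). Hspd1, Hspe1 and Afg3l2 were called with all arrays and not with replicates 1 and 2 averaged, Hspd1 at 0.23 ± 0.065 (adjusted p = 0.0323, then 0.0845). Lonp1, the protease that rose most of this list at 80 mg/kg, at 1.499, was not called at 30 mg/kg (0.19 ± 0.082 (SE), adjusted p = 0.195).

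**Figure D3:**
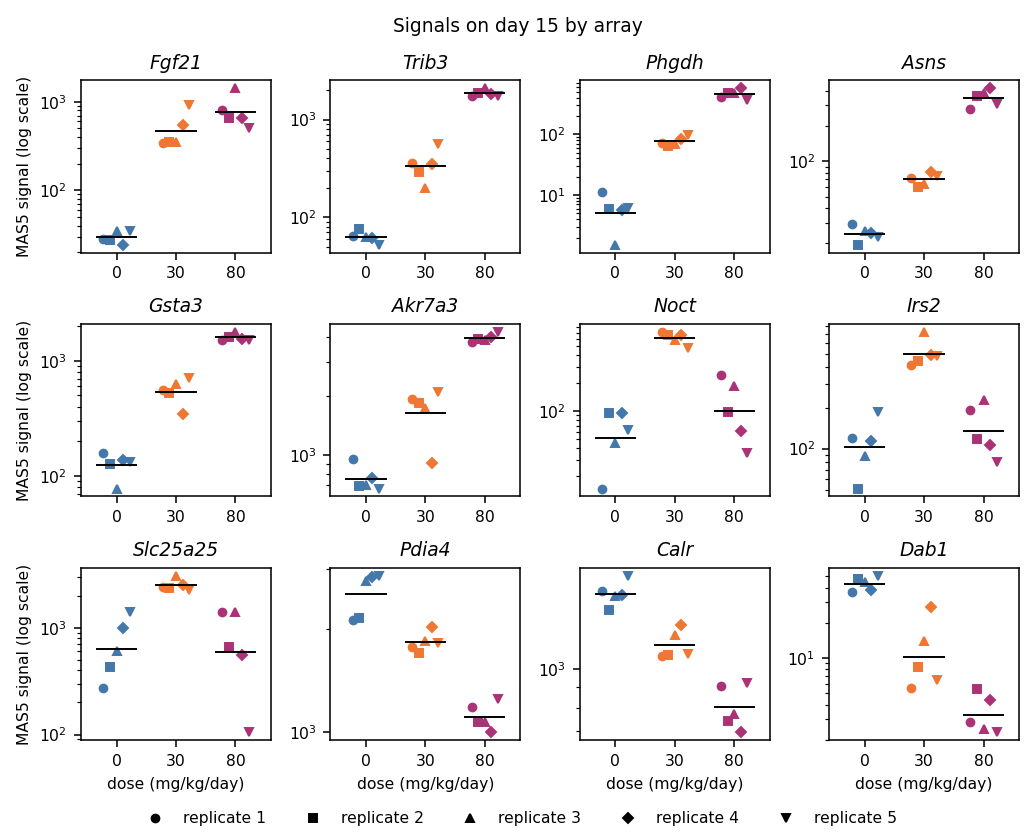
Signals of 12 genes in each array on day 15, on a log axis, against dose in mg/kg/day; marker shapes give the replicate number and bars the geometric mean of 5 arrays. In Trib3, Phgdh and Asns the 80 mg/kg arrays lie above the 30 mg/kg arrays, in Fgf21 those doses overlap, Noct, Irs2 and Slc25a25 are highest at 30 mg/kg, and Pdia4, Calr and Dab1 fall with dose.

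Several single genes, grouped here only for reading and not as a tested list, rose while their control signals spread widely. Noct, a circadian gene, read 14.6, 94.7, 45.1, 96.3 and 62.5 in controls and 717, 672, 589.6, 670.2 and 483 in treated liver (3.58 ± 0.64 (SE), adjusted p = 0.000386). Irs2, a main insulin receptor substrate of liver, read 119, 50.8, 88.6, 114 and 186 in controls and 414, 441, 722, 488 and 483 in treated liver (2.28 ± 0.40 (SE), adjusted p = 0.000324). Neither gene overlapped between the groups, although control signals of Noct spread widely. Igfbp1, a secreted binding protein that insulin represses, read 1008, 974, 2275, 3907 and 3605 in controls and 6047, 6199, 6669, 6208 and 6364 in treated liver (1.66 ± 0.35 (SE), adjusted p = 0.00296); treated arrays were nearly equal while control replicates 4 and 5 were the highest controls. Slc25a25, a mitochondrial ATP-magnesium and phosphate carrier, was also highest in control replicates 4 and 5, at 269.9, 428, 602, 996 and 1397, with 2427, 2364, 3066, 2530 and 2256 in treated liver (2.004 ± 0.48 (SE), adjusted p = 0.00883). Slc38a2, an amino acid transporter, read 278, 422, 350.1, 575 and 684 in controls and 1489, 1528, 1813, 1783 and 1228 in treated liver (1.82 ± 0.35 (SE), adjusted p = 0.000829). Nr4a1, an immediate early nuclear receptor, read 19.1, 18.7, 16, 102 and 64.2 in controls and 90.5, 101, 146, 152 and 100.3 in treated liver (1.82 ± 0.40 (SE), adjusted p = 0.00405), and control replicate 4 overlapped the treated arrays. Tat, a tyrosine-degrading enzyme induced by glucagon and glucocorticoids, read 513, 716, 469.8, 745 and 791 in controls and 1515, 1534, 1444, 1520 and 1474 in treated liver (1.24 ± 0.21 (SE), adjusted p = 0.000257), the treated arrays again nearly equal. Feeding state and time of sampling were not tested. Ppargc1a, a coactivator of mitochondrial and fasting genes, rose (0.98 ± 0.23 (SE), adjusted p = 0.00595) and so did Asl, of the urea cycle (0.61 ± 0.12 (SE), adjusted p = 0.00193). On the AP-1 and immediate early list 2 of 16 genes rose, Nr4a1 and Myc (1.60 ± 0.39 (SE), adjusted p = 0.00911), with all arrays and with replicates 1 and 2 averaged, beside 2.71% of all genes called up. Of the 16 genes 9 lay above 0, with a list median of 0.33. Myc was high in control replicate 5, at 452 against 142 in the next control. On the clock list 3 of 18 rose, beside 2.71% of all genes called up: Noct, Dbp (1.26 ± 0.31 (SE), adjusted p = 0.0108) and Nfil3 (0.76 ± 0.19 (SE), adjusted p = 0.0117). The core clock genes Bmal1 (0.075 ± 0.11, adjusted p = 0.773) and Per2 (0.17 ± 0.37, adjusted p = 0.856) were not called.

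Of 22 genes of fatty acid oxidation 3 rose, Acot2, Ppargc1a and Hadhb, beside 2.71% of all genes called up. Of 24 genes of PPAR alpha and peroxisomes 3 rose, the acyl-CoA thioesterases Acot1, Acot3 and Acot4, beside the same share. Acot2, the mitochondrial thioesterase, read 301, 241, 348, 304 and 325 in controls and 728, 749.5, 608, 395 and 828 in treated liver (1.09 ± 0.21 (SE), adjusted p = 0.00133). Acot4 differed by 0.78 ± 0.19 (adjusted p = 0.00837), Acot3 by 0.84 ± 0.21 (adjusted p = 0.0131) and Hadhb, of the trifunctional protein, by 0.39 ± 0.088 (adjusted p = 0.00407). Acot1 was near the lower limit of the chip in both groups, at 0.14 to 4.77 in controls and 3.74 to 19 in treated liver, and its call was lost with replicates 1 and 2 averaged (adjusted p = 0.0937). These thioesterase genes are close copies, so their probe sets may share signal. Cpt1a, the gate of mitochondrial fatty acid uptake, was not called (0.48 ± 0.22 (SE), adjusted p = 0.223). The lipid synthesis genes Fasn (-0.52 ± 0.29, adjusted p = 0.338) and Scd (-1.16 ± 0.40, adjusted p = 0.0802) were not called, and Scd read 2425, 2570, 3142, 1129 and 2861 in treated replicates 1 to 5 against 4103 to 5913 in controls, so that the groups did not overlap. Igfbp2, a binding protein for insulin-like growth factors, rose, with 21.5 to 42.4 in controls and 45.8 to 97 in treated liver (1.48 ± 0.27 (SE), adjusted p = 0.000451), whereas Igf1 was not called (-0.26 ± 0.11 (SE), adjusted p = 0.184).

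Other named rises fell on none of these lists or on lists with 1 to 3 called genes. Enc1, an actin-binding protein of the Kelch family, read 34.8, 49.4, 44, 32.6 and 44.8 in controls and 179, 186, 161, 144 and 224 in treated liver (2.12 ± 0.22 (SE), adjusted p = 4.14e-09). Slc16a6, a monocarboxylate carrier, read 14.6, 18.7, 25.3, 38.5 and 29.4 in controls and 102, 97.9, 95.5, 63.9 and 113 in treated liver (1.96 ± 0.26 (SE), adjusted p = 3.29e-06). Rab30, a Golgi GTPase, read 56.5, 42.7, 73, 44.5 and 77.7 in controls and 228, 205, 267, 194 and 166 in treated liver (1.87 ± 0.34 (SE), adjusted p = 0.000556). Gadd45b, a stress-inducible regulator of kinases, read 8.73, 28.7, 52.1, 62.2 and 39.5 in controls and 123, 113, 223, 142 and 218 in treated liver (2.31 ± 0.53 (SE), adjusted p = 0.00525). None of the treated arrays overlapped the controls in these 4 genes, and all 15 of the largest separated rises were called with replicates 1 and 2 averaged and in each fit without 1 array. Slc1a4, a carrier of small neutral amino acids, differed by 1.54 ± 0.31 (adjusted p = 0.00163), Ces2c, a carboxylesterase, by 0.71 ± 0.12 (adjusted p = 0.000257), Tpm1, a tropomyosin, by 0.41 ± 0.10 (adjusted p = 0.00933) and Cyc1, of respiratory complex III, by 0.23 ± 0.054 (adjusted p = 0.00633). On the p53 target list 3 of 15 genes were called, Gadd45a, Tp53inp1 and the cell-cycle inhibitor Cdkn1a, at 1.24, 1.22 and 0.70, beside 2.71% of all genes called up. Only Tp53inp1 was called with replicates 1 and 2 averaged, and Mdm2, the p53 target that limits p53, was not called (0.12 ± 0.12 (SE), adjusted p = 0.632). Cyp7a1, the rate-limiting enzyme of bile acid synthesis, differed by 0.93 ± 0.28 (adjusted p = 0.0382) and was not called with replicates 1 and 2 averaged (0.082). The same was so for the tRNA synthetase Yars1, the iron regulator Ireb2 and the respiratory chain genes Ndufs4 and Ndufa8, with adjusted p of 0.0604, 0.0665, 0.0634 and 0.0807.

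Fewer falls than rises exceeded 2-fold. Dab1, an adaptor of reelin signalling, read 36.7, 47.9, 45.2, 38.2 and 50.8 in controls and 5.56, 8.45, 14.1, 27.2 and 6.49 in treated liver, with replicate 4 the highest treated array (-2.07 ± 0.42 (SE), adjusted p = 0.00163). Nfe2, a transcription factor best known from blood cells, read 36.4, 63.6, 78.4, 65.6 and 49.6 in controls and 22.2, 17.3, 17, 23.5 and 10.8 in treated liver (-1.70 ± 0.43 (SE), adjusted p = 0.0128). Efna5, a ligand of Eph receptors, read 149.6, 216, 234, 196 and 255 in controls and 121, 87.4, 129.7, 123 and 129 in treated liver (-0.82 ± 0.18 (SE), adjusted p = 0.00309). Col4a5, a basement membrane collagen, read 187, 117, 203, 159 and 123 in controls and 92.6, 104, 84.8, 107 and 68.3 in treated liver (-0.77 ± 0.16 (SE), adjusted p = 0.00163). Tirap, an adaptor of Toll-like receptors, read 83.8, 88.9, 70.7, 74.3 and 79.2 in controls and 40.1, 41.8, 50.1, 66 and 36.9 in treated liver (-0.78 ± 0.16 (SE), adjusted p = 0.00149), and Apol9a, of the apolipoprotein L family, 97.4, 115, 104, 84.5 and 59 in controls and 56, 48.4, 27.1, 53.2 and 45.4 in treated liver (-1.01 ± 0.20 (SE), adjusted p = 0.00163). In each of these 6 genes every treated array lay below every control. Rsrp1, a serine- and arginine-rich protein, read 1869, 1861, 1857, 1626 and 941 in controls and 808, 697, 683, 976 and 613 in treated liver (-1.08 ± 0.21 (SE), adjusted p = 0.000916), and control replicate 5 fell below treated replicate 4. Tap1, the peptide transporter for MHC class I, read 181, 158, 151, 192 and 152 in controls and 99.8, 108, 91.1, 89.2 and 129.9 in treated liver (-0.69 ± 0.14 (SE), adjusted p = 0.00117) without overlap. Other separated falls were Rcc1 (-1.41), Adora2b (-1.13), Gas7 (-1.22), Car5b (-1.003) and Slc39a7 (-0.75), a zinc transporter, which were called with all arrays and with replicates 1 and 2 averaged. Kcnj15, Abcg8 and Apoa4 were called with all arrays, at -1.31, -1.46 and -0.83, and with replicates 1 and 2 averaged had adjusted p of 0.0557, 0.0765 and 0.0515. Without 1 array, Kcnj15 was lost in 5 of 10 fits, Abcg8 in 9 of 10, Apoa4 in 6 of 10, Car5b in 4 of 10, Gas7 in 3 of 10, Rcc1 in 2 of 10, and Nfe2 and Slc39a7 in 1 of 10 each. Gas7 differed by only -0.77 without 30 mg/kg replicate 3 (adjusted p = 0.155). Its call was also lost when only the groups compared were fitted (adjusted p = 0.113).

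Few genes of secreted liver proteins were called. On the complement list 1 of 17 genes fell, C6, on the acute phase list 1 of 23, A2m, and on the coagulation list 1 of 16, Proc, beside 1.88% of all genes called down, and with replicates 1 and 2 averaged none was called (adjusted p = 0.105, 0.0972 and 0.0524). Of the complement genes 2 of 17 lay above 0, of the acute phase genes 9 of 23 and of the coagulation genes 2 of 16. The list medians were -0.11, -0.037 and -0.098, and 51.6% of all genes lay above 0. C6 read 423, 445, 598, 1229 and 606 in treated replicates 1 to 5 against 821 to 1657 in controls, so replicate 4 was the only treated array inside the control range. A2m read 29.5, 32.2, 35.4, 95.5 and 31.4 against 50.2 to 144, again with replicate 4 alone inside that range. Their adjusted p was 0.0321 and 0.0379, and without 1 array the calls were lost in 7 of 10 and 8 of 10 fits. Cebpa, a liver transcription factor, differed by -0.55 ± 0.16 (adjusted p = 0.033, and 0.0582 with replicates 1 and 2 averaged).

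Nearly all genes of mitosis lay higher at 30 mg/kg without passing the test. All 29 measured genes of the list had a log2 difference above 0, with a median of 0.97, and 18 had an unadjusted p under 0.05, as had 2003 of all 10725 genes. Of the list only Pbk, a mitotic kinase, was called (1.83 ± 0.502 (SE), adjusted p = 0.0238), beside 2.71% of all genes called up, and with replicates 1 and 2 averaged it was not (adjusted p = 0.0684). Without replicate 4, 8 of the 29 were called, the highest count in any fit without 1 array. Mki67, the proliferation marker Ki-67, read 13.3, 23.2, 12.1, 13.7 and 10.7 in controls and 35.1, 30.4, 24.3, 16.7 and 42 in treated liver (1.01 ± 0.41 (SE), adjusted p = 0.156). Cdk1, the mitotic kinase, read 28, 32.5, 15.3, 26.4 and 14 in controls and 37.2, 50.7, 44, 24.2 and 68.5 in treated liver (0.95 ± 0.45 (SE), adjusted p = 0.241), with replicate 4 among the controls. Ccnd1, cyclin D1, differed by 0.70 ± 0.23 (adjusted p = 0.0592).

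Few markers of other liver cells were called. Of 14 biliary markers 1 rose, Prom1 (0.98 ± 0.25 (SE), adjusted p = 0.0151), beside 2.71% of all genes. Leaving out 1 array gave 0 to 3, with 3 when replicate 4 was left out. All 14 lay above 0 with a median of 0.53, among them Krt19 (0.43 ± 0.21, adjusted p = 0.244). The summed signal of the biliary markers was 2491 to 3596 in controls and 3094 to 4419 in treated liver, with replicate 4 the lowest treated array (exact permutation test, 2-sided, p = 0.0397). Of 15 macrophage markers none was called and 14 lay above 0, and their summed signal was 5369 to 6496 in controls and 6247 to 8030 in treated liver (exact permutation p = 0.0397). Adjusted over the 13 sample measures compared, both exact permutation tests had p = 0.258, and the smallest exact p this design allows is 0.00794. The macrophage marker Gpnmb differed by 0.59 ± 0.25 (adjusted p = 0.184). In whole liver, more cells of a type and more RNA per cell cannot be told apart. The hepatocyte markers summed to 39610 to 51460 in controls and 43240 to 49790 in treated arrays (exact permutation p = 0.730), so the markers of the labelled tissue were present. Replicate 4 was the lowest treated array in Mki67, Cdk1 and the biliary sum, and the part of cell composition in the results was not tested.

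**Figure D4:**
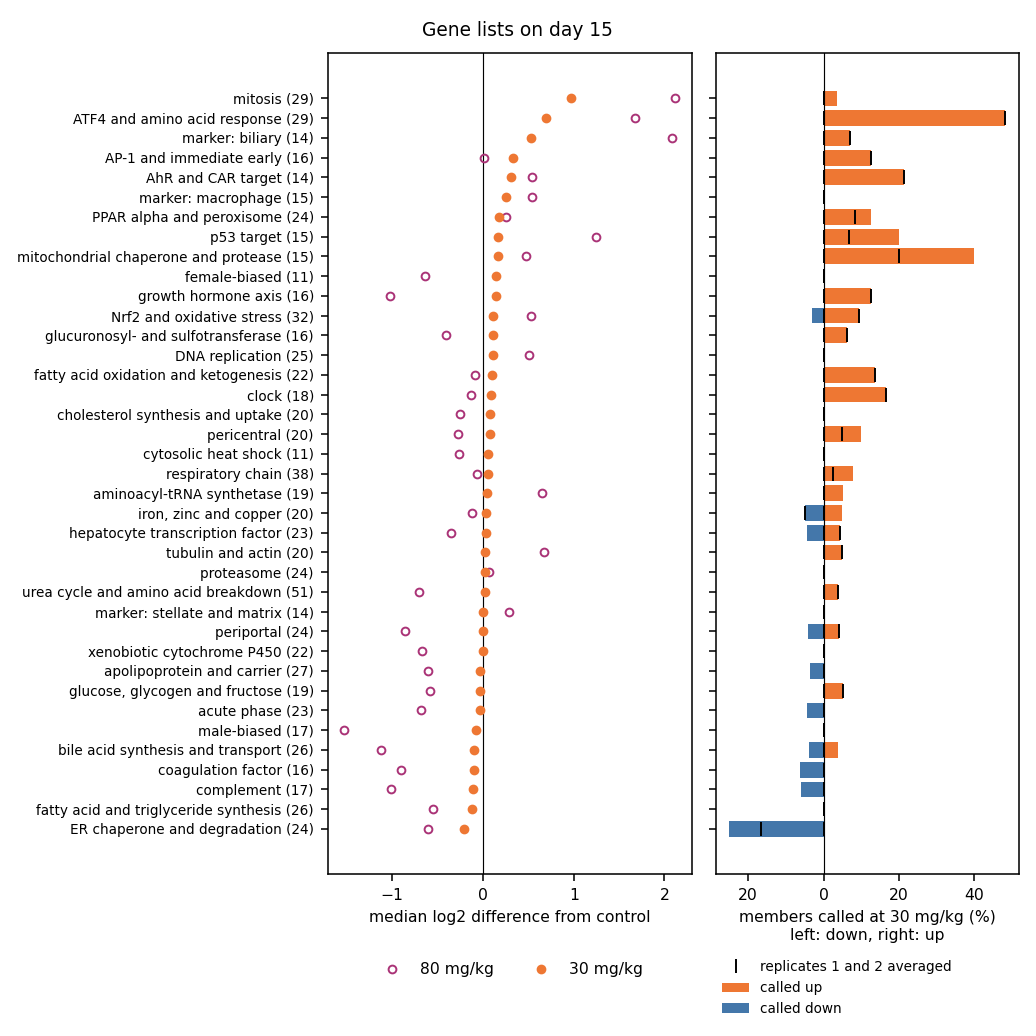
Left, the median log2 difference from control on day 15 for each gene list with at least 10 measured genes (number in brackets), at 30 mg/kg (filled) and 80 mg/kg (open); right, the percentage of members called at 30 mg/kg, with ticks for the fit with replicates 1 and 2 averaged. At 30 mg/kg the ATF4 list has the most calls up, 14 of 29, and the endoplasmic reticulum list the most down, 6 of 24.

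Several lists with many called genes at 80 mg/kg had counts at 30 mg/kg near the share of all genes, 4.6%, so those counts say nothing particular about the lists. Of 22 xenobiotic cytochrome P450 genes none was called at 30 mg/kg and 18 fell at 80 mg/kg, where 20.5% of all genes fell, 38.8% rose and 59.2% were called, and their medians were -0.0031 and -0.67. Of 17 male-biased genes none was called at 30 mg/kg and 16 fell at 80 mg/kg. Of 51 genes of the urea cycle and amino acid breakdown 2 rose at 30 mg/kg, Tat and Asl, and 43 fell at 80 mg/kg. Cyp2c11, the main male-specific P450 of rat liver, read 5729, 6759, 6881, 8038 and 7729 in controls, 6529, 6384, 6594, 6058 and 5937 at 30 mg/kg and 2035, 935, 2764, 633 and 3499 at 80 mg/kg. Its treated range at 30 mg/kg lay inside the control range, and the difference was -0.15 ± 0.22 (SE), adjusted p = 0.777. Slc10a1, the bile acid importer of hepatocytes, read 4234, 4245, 4514, 4448 and 3968 in controls, 3980, 4182, 4180, 3998 and 3685 at 30 mg/kg and 1559, 555, 1332, 756 and 1688 at 80 mg/kg (30 mg/kg minus control -0.097 ± 0.16 (SE), adjusted p = 0.8). Both comparisons use the same controls. The difference between doses was tested directly, and 5921 genes (55.2%) differed between 80 and 30 mg/kg on day 15, 3963 higher (37%) and 1958 lower (18.3%) at 80 mg/kg, with 5665 when replicates 1 and 2 were averaged. The median over all genes was 0.16 higher at 80 than at 30 mg/kg, so the counts of higher and lower genes are relative to that shift.

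The 6 greatest falls from 30 to 80 mg/kg included Stac3, at 2344 to 3026 in controls, 1715 to 2310 at 30 mg/kg and 8.29 to 71.6 at 80 mg/kg (80 minus 30 mg/kg -6.75 ± 0.41 (SE), adjusted p = 1.55e-18), Inmt, a methyltransferase, at 708 to 929.9 in controls, 950.5 to 1512 at 30 mg/kg and 24 to 120.2 at 80 mg/kg (-4.61 ± 0.47 (SE), adjusted p = 5.95e-12), and Sds, serine dehydratase, at 384 to 679 in controls, 324 to 1080 at 30 mg/kg and 2.81 to 166 at 80 mg/kg (-4.73 ± 0.51 (SE), adjusted p = 4.71e-11). At 30 mg/kg Sds overlapped the controls, while every array of Stac3 lay below and every array of Inmt above them. Neither was called there (adjusted p = 0.62 and 0.549), but both were when only the groups compared were fitted (0.0196 and 0.0308). Among the rises, Acot1 read 3.74 to 19 at 30 mg/kg and 1536 to 2514 at 80 mg/kg (adjusted p = 6.21e-09), and Gucy2c, a receptor guanylate cyclase, read 0.58 to 11.7 at 30 mg/kg and 90.6 to 226 at 80 mg/kg (adjusted p = 6.18e-08). No fold is given for this pair, since their 30 mg/kg signals are near or below the median of all signals, 17.09. The filter asks for at least 4 arrays above that median, which the 80 mg/kg arrays of day 15 alone met in both genes. Their p-values are therefore not independent of the filter. Gstp1, the placental glutathione transferase used as a marker of altered liver foci, differed from control by 0.502 ± 0.31 at 30 mg/kg (adjusted p = 0.394) and by 2.98 ± 0.31 at 80 mg/kg (adjusted p = 7.26e-12).

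Of the 291 rises at 30 mg/kg, 198 (68%) were called higher still at 80 than at 30 mg/kg, 58 were not called between the doses and 35 (12%) were called lower at 80 mg/kg, beside 37% of all genes higher and 18.3% lower. Rises that were lower at 80 mg/kg were thus no more frequent than among all genes. With replicates 1 and 2 averaged these numbers were 119, 32 and 23 of 174. This comparison shares the 30 mg/kg arrays with the one against control, so the calls are not independent. The 35 held Noct, Irs2, Chac1, Gadd45b, Slc25a25, Slc38a2 and Nr4a1, and also Coq10b, Sik1 and Nr4a2, which were picked after their values were seen. Sik1, a kinase induced by cyclic AMP, read 59.4, 47.5, 79.3, 97.6 and 103 in controls, 190.3, 193, 317, 195 and 294 at 30 mg/kg and 124, 82.5, 94.5, 62.9 and 27.7 at 80 mg/kg (80 minus 30 mg/kg -1.73 ± 0.35 (SE), adjusted p = 3.97e-05). Coq10b, a coenzyme Q binding protein, read 275, 502, 343, 431 and 497 in controls, 1308, 1294, 1781, 1569 and 1140 at 30 mg/kg and 455, 495, 502, 417 and 368 at 80 mg/kg (-1.66 ± 0.37 (SE), adjusted p = 0.000169). Noct read 247, 98.7, 185, 60.8 and 35.6 at 80 mg/kg, and its difference from 30 mg/kg was -2.64 ± 0.64 (SE), adjusted p = 0.000431. In all 3 genes every array at 30 mg/kg lay above every array of both other groups. Nr4a2, a relative of Nr4a1, did so as well, with 50.4 to 106 at 30 mg/kg against 20.2 to 34.5 in controls and 20.2 to 34.2 at 80 mg/kg.

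Of the 202 falls, 90 (44.6%) were lower still at 80 mg/kg, 76 were not called between the doses and 36 (17.8%) were higher at 80 than at 30 mg/kg, beside 18.3% of all genes lower and 37% higher. Averaging replicates 1 and 2 gave 41, 38 and 18 of 97. Osgin1 was one of the 36, with 962, 1250, 1133, 1455 and 2264 at 80 mg/kg against 362 to 746 at 30 mg/kg (1.31 ± 0.34 (SE), adjusted p = 0.000934). Slc39a7 read 473 to 579.5 at 80 mg/kg against 258 to 384 at 30 mg/kg (0.71 ± 0.19 (SE), adjusted p = 0.0016), Col4a5 119 to 154 against 68.3 to 107 (0.58 ± 0.16 (SE), adjusted p = 0.00134) and Tap1 131 to 186 against 89.2 to 129.9 (0.67 ± 0.14 (SE), adjusted p = 3.76e-05). Against control, 9 genes were called in opposite directions at the 2 doses, or 2 with replicates 1 and 2 averaged. The 6 that the rule named were C11h21orf91, Nat8b, Irs1 and Nfil3, higher at 30 and lower at 80 mg/kg, and Zfp770 and Mat2a, lower at 30 and higher at 80 mg/kg. C11h21orf91 differed by 0.88 ± 0.20 (SE), adjusted p = 0.00595 at 30 mg/kg and by -0.64 ± 0.20 (SE), adjusted p = 0.00617 at 80 mg/kg. Mat2a, which makes the methyl donor S-adenosylmethionine outside the adult hepatocyte programme, differed by -0.49 ± 0.14 (SE), adjusted p = 0.0351 and 0.48 ± 0.14 (SE), adjusted p = 0.00337. The calls at 30 mg/kg of Nat8b, Irs1, Zfp770 and Mat2a were lost with replicates 1 and 2 averaged (adjusted p = 0.0656, 0.11, 0.0699 and 0.0557). With the mean of probe sets Mat2a differed at 30 mg/kg by only -0.17 (adjusted p = 0.607), and without 1 array its call was lost in 7 of 10 fits.

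At the earlier times the same dose called few genes, 84 on day 4 (0.783%; 0.531% up and 0.252% down) and 25 on day 8 (0.233%; 0.177% up and 0.0559% down), and after recovery 10 (0.0932%; 0.0466% in each direction). These days have their own controls and treated animals. Of the 291 rises of day 15, 81.8% were also above control on day 4, where 52.5% of all genes were, and 88.7% on day 8, where 51.2% of all genes were. Of the 202 falls, 84.7% were below control on day 4 and 88.6% on day 8, against 47.5% and 48.8% of all genes. On day 24 the shares were 53.6% of rises and 48.5% of falls, against 53.5% and 46.5% of all genes. Over the rises the median log2 difference at days 4, 8, 15 and 24 was 0.18, 0.20, 0.50 and 0.02, respectively. With replicates 1 and 2 averaged, 83.9% of 174 rises were above control on day 4 and 89.1% on day 8. On day 4, 21 of the rises were already called and on day 8, 11, and of the falls 2 (Efna5 and Epm2aip1) and 3 (Nrbp2, Prkd3 and Slc22a17). On day 24 none was called in the same direction, and the rise Gstt3 was called down (-0.55, adjusted p = 0.0405). Gsta3 was called up at both earlier times, at 1.81 on day 4 (adjusted p = 0.000289) and 2.65 on day 8 (adjusted p = 1.17e-08), as were Akr7a3, at 0.91 and 1.22, Aldh1a1, at 1.45 and 1.86, Ces2c, at 0.78 and 0.70, and Fgf21, at 1.48 and 1.95.

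**Figure D5:**
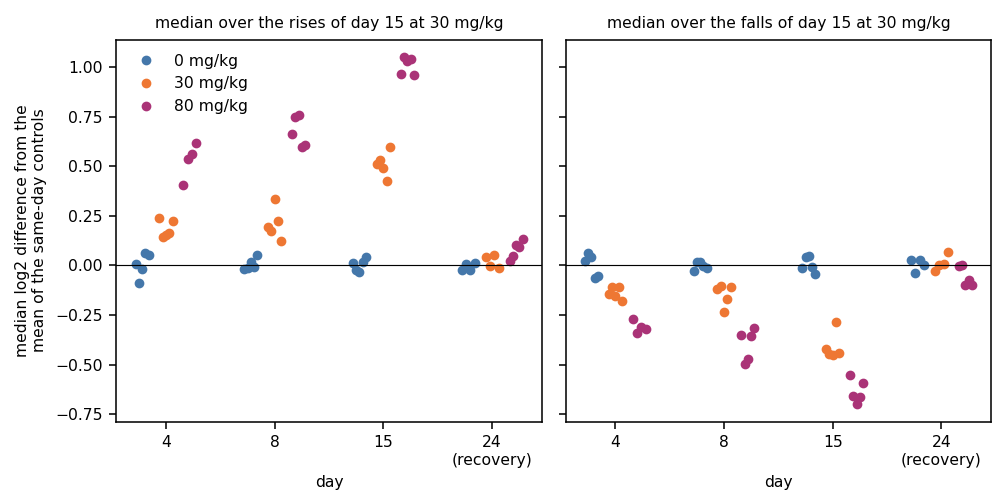
Each point is 1 array; the y axis gives the median log2 difference from the mean of the same-day controls over the 291 rises (left) or 202 falls (right) called at 30 mg/kg on day 15, and the x axis gives the day, with colours for dose. On day 15 the genes were chosen from the same 30 mg/kg arrays; on days 4 and 8 all 30 mg/kg arrays lie on the same side of 0 at smaller distances, and on day 24 they lie near 0.

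Whether the effect of 30 mg/kg differed between days was tested as the difference of the differences from control. Between day 15 and day 4, 7 genes passed (0.0653%), all with a more positive effect on day 15, and 853 had an unadjusted p under 0.05. They included Fgf21, whose effect was 2.49 ± 0.51 greater on day 15 (adjusted p = 0.0258), Enc1 (1.75 ± 0.31, adjusted p = 0.0107), Spsb4, of a family of ubiquitin ligase adaptors (1.997 ± 0.41, adjusted p = 0.0258), and Nupr1 (1.82 ± 0.39, adjusted p = 0.0342). Spsb4 itself was 5.29 to 16.4 in controls and 31.9 to 72.7 at 30 mg/kg on day 15. These 30 mg/kg arrays alone met the filter, so its p-values are not independent of the filter. C11h21orf91 (1.36), Plekha1 (0.93) and Rps4y2 (1.17) also passed, though Rps4y2 was not called against control on day 15 and was lower than control on day 4 (-0.79, adjusted p = 0.00737). In Nupr1, C11h21orf91 and Plekha1 the difference exceeded the day 15 effect (1.465, 0.8836 and 0.6267), so their day 4 effects lay below 0. Between day 15 and day 8, 2 genes passed (0.0186%), Enc1 (1.76 ± 0.31, adjusted p = 0.00732) and Tap1 (-1.05 ± 0.19, adjusted p = 0.00732), 1 in each direction (0.00932%), and 652 had an unadjusted p under 0.05. Leaving out 30 mg/kg replicate 5 of day 15 gave 2 genes in the test against day 4, and leaving out control replicate 4 of day 15 gave 3. No array of day 4 or day 8 was left out. Without 1 array, the day 4 test was lost in 6 of 10 fits for Nupr1, 4 for C11h21orf91, 3 for Fgf21 and 2 for Spsb4. Nupr1 was also lost with replicates 1 and 2 averaged (adjusted p = 0.0507), Enc1 with the mean of probe sets (1.23, adjusted p = 0.16), and Spsb4 and, against day 8, Tap1 when only the groups compared were fitted (adjusted p = 0.141 and 0.0647).

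The effect after recovery was compared with that of day 15 in the same way. Between day 24 and day 15, 117 genes passed (1.09%), 43 with a more positive (0.401%) and 74 with a more negative (0.69%) effect on day 24, and 70 passed with replicates 1 and 2 averaged. Without 30 mg/kg replicate 1 of day 15 there were 69, and without replicate 4 of that day there were 207. Fgf21 (-2.76 ± 0.54, adjusted p = 0.00519), Gsta3 (-2.42 ± 0.42, adjusted p = 0.00129), Trib3 (-2.08 ± 0.51, adjusted p = 0.0264), Slc16a6 (-2.07 ± 0.39, adjusted p = 0.00305) and Enc1 (-1.91 ± 0.33, adjusted p = 0.00129) had rises on day 15 that were smaller on day 24. On day 24 Gsta3 differed from control by -0.29 ± 0.31 and Enc1 by 0.22 ± 0.25, and neither was called. The changes of Fgf21 and Trib3 were smaller than their day 15 rises (3.97 in Fgf21), so both still lay above control on day 24, though neither was called up. Efna5 (1.17 ± 0.27, adjusted p = 0.016), Apol9a (1.44 ± 0.30, adjusted p = 0.00861), Rsrp1 (1.23 ± 0.31, adjusted p = 0.0308), Ccdc127 (1.21 ± 0.26, adjusted p = 0.00858) and Zdhhc23 (1.21 ± 0.27, adjusted p = 0.0139) moved the other way, from a fall on day 15, though the day 15 call of Zdhhc23 was lost with replicates 1 and 2 averaged (adjusted p = 0.0949). Ltc4s, of leukotriene synthesis, and Plac9 passed this test (2.44 and -3.44) without having been called against control on day 15. Averaging replicates 1 and 2 ended the call for Ltc4s (adjusted p = 0.0565), Plac9 (0.0712) and Rsrp1 (0.0528), and Plac9 was lost in 15 of 21 alternatives. Without 1 array it was lost in 7 of 10 fits for Plac9, 6 for Rsrp1, 4 for Ltc4s and 1 for Trib3. With the mean of probe sets it was lost for Ccdc127 (adjusted p = 0.148), Rsrp1 (0.192) and Enc1 (0.069), and Ccdc127 was then not called against control on day 15 either (-0.36, adjusted p = 0.385). It was also lost for Efna5, Gsta3 and Zdhhc23 when only the groups compared were fitted (adjusted p = 0.0512, 0.0512 and 0.0728). The fits without 1 array left out only arrays of day 15, so dependence on single arrays of day 24 was not tested. Among those, 30 mg/kg replicate 3 lay apart, with an SD of log2 differences of 0.403 to 0.406 from the others of its group. The median over same-group pairs was 0.295 and the largest 0.411.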

How the data were processed

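Liver RNA of single rats was hybridised to Affymetrix Rat Genome 230 2.0 arrays. The authors deposited intensity values from MAS5, per the submitters' processing notes; in every array the mean signal after trimming 2% at each end was 99.99, and values are linear. Low signals of this method are noisy and may be near 0. Of 31099 probe sets, 57 controls were left out, 20826 carry 1 gene symbol in the platform annotation, 436 several and 9837 none; 20758 matched a RefSeq gene. Signals were log2 transformed with no offset. A probe set was kept where it exceeded the median of all signals (17.09) in at least 4 arrays, and the probe set with the highest mean stood for a gene. The 12 group means of all 57 arrays were fitted with limma 3.58.1 in R 4.3.3, with a variance trend. Genes with adjusted p under 0.05 were called. The fit was tested on simulated data. Figures were drawn with matplotlib 3.10.9.

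The members and gene lists were chosen with earlier results of these data known. The text names the 15 greatest separated rises and falls among called genes, ranked after an offset (the 20th percentile of signals, 3.31) was added; up to 4 called genes per list and direction; 6 per direction in other comparisons; and up to 6 genes opposite at the doses. Other genes (Asns, Psat1, Slc7a1, Slc3a2, Aldh18a1, Vldlr, Mthfd2, Pdia6, Derl1, Hspd1, Hspe1, Sik1, Nr4a2, Coq10b, Abcc3, the genes behind counts of 7 or fewer, MHC genes and uncalled examples) were picked after their values were seen. RNA quality was read from actin and Gapdh 3'/5' ratios. Marker sums were compared with exact permutation tests, 2-sided. The alternatives are in the closing section; averaging replicates 1 and 2 was added after seeing the data. No per-sample column was left unused.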

Additional observations from a re-analysis of the deposited data

Results flagged for a closer look

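Of 310 groups of 5 arrays examined over 142 genes and 13 sample measures, 18 held 1 array far from the others; chance alone gives about 1 in 20 such groups. In 30 mg/kg liver on day 15, replicate 4 was the array apart in A2m (95.5), Akr7a3 (905), Hadhb (1590), Hspa5 (4520), Per2 (68.7), Scd (1130), Xbp1 (4100) and the summed biliary markers (3090). Replicate 2 was low in Efna5 (87.4), replicate 5 high in Psat1 (145), and replicate 3 high in Sesn2 (301) and in the summed endothelial markers (2630). In control liver, replicate 5 was high in Myc (452) and in the actin 3'/5' log2 ratio (2.67) and low in Rsrp1 (941), and replicate 3 was low in the summed T and NK cell markers (170) and high in those of B cells (129) and neutrophils (52.3).

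The effect of 30 mg/kg differed between days, by limma's test of the difference, in the genes that follow, with values on the log2 scale. From day 4 to day 15 it became more positive by 2.49 in Fgf21, 1.82 in Nupr1, 1.997 in Spsb4, 1.75 in Enc1, 1.36 in C11h21orf91 and 1.17 in Rps4y2. In Nupr1, C11h21orf91 and Rps4y2 it went from below 0 on day 4 to above 0 on day 15. From day 8 to day 15 it changed by 1.76 in Enc1 and -1.05 in Tap1. From day 15 to recovery on day 24 it changed by 2.44 in Ltc4s, 1.44 in Apol9a, 1.23 in Rsrp1, 1.21 in Zdhhc23, 1.17 in Efna5, 1.21 in Ccdc127, -2.76 in Fgf21, -2.42 in Gsta3, -3.44 in Plac9, -2.08 in Trib3, -2.07 in Slc16a6 and -1.91 in Enc1.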

How the results depend on the processing

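The number of genes called at 30 mg/kg on day 15 was 493, and depended most on how replicates were treated. It was 271 (174 up, 97 down) with replicates 1 and 2 averaged, 301 (158 up) with arrays scaled to a common median, and 1002 (572 up, 430 down) with array weights, where replicates 1 and 2 received the highest weights of the 10 arrays (1.61 and 2.13) and replicate 4 the lowest (0.735). Quantile normalization, no filter, a stricter filter, an added offset, the mean of probe sets, no variance trend, fitting the groups compared alone and adjusting for the actin 3'/5' ratio gave 428 to 574. The genes were not all the same: of the 574 called with the groups compared alone, 355 (61.8%) were among the 493. Leaving out 1 array gave 277 to 616, with 162 to 353 up and 98 to 263 down. The replicate numbers do not pair the animals: same-numbered arrays deviated together with r from -0.064 to 0.0084, and 0 of 5 treated arrays correlated best with its own number; with the replicate number as a block 466 genes were called. The comparison of 80 with 30 mg/kg kept within 1.5 times its count in every fit run (5183 to 6374, and 5889 with the replicate block). For day 15 minus day 4, 11 genes passed with the actin ratio, with array weights and with an offset, 5 with the replicate block, and 2 to 10 without 1 array. For day 15 minus day 8, 4 passed with array weights, 1 with the groups alone and 2 with the replicate block. For day 24 minus day 15, 70 passed with replicates 1 and 2 averaged, 57 with a common median, 37 with the groups alone, 60 with the replicate block and 69 to 207 without 1 array. In the tests between days only arrays of day 15 were left out. Over 170 gene results and 3712 values under alternatives, 3286 kept direction and side of the threshold, 389 lost and 36 gained a call, and 1 changed sign: Nqo1, not called, which ranged from -0.25 to 0.15 without 1 array and was positive only without control replicate 2.

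Signals near the lower limit of the chip, as in Phgdh, Acot1, Gucy2c, Mthfd2 and Pbk, limit the size of their changes.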

Other observations

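A pair of genes of the major histocompatibility complex varied widely between animals, and were picked after their values were seen. RT1-T24-4 read 3.17, 0.53, 0.48, 0.37 and 534 in control replicates 1 to 5, 879, 926, 659.5, 7.83 and 157 at 30 mg/kg and 5.41, 418, 368, 492 and 454 at 80 mg/kg on day 15. It was called at 30 mg/kg (6.39 ± 1.97 (SE), adjusted p = 0.0473), though control replicate 5 exceeded treated replicates 4 and 5, and not with replicates 1 and 2 averaged (adjusted p = 0.119). RT1-CE10 read 1415, 1051, 1235, 1586 and 1009 in controls. At 30 mg/kg it read 113, 104, 63.9, 160.2 and 986, each below every control, and at 80 mg/kg 1741, 1317, 1117, 1156 and 1167. It was not called at 30 mg/kg (-2.92 ± 0.98 (SE), adjusted p = 0.0717). The 30 mg/kg replicates 1 and 2 were alike in both genes. Abcc3, a basolateral efflux pump, was not called at 30 mg/kg (1.24 ± 0.39 (SE), adjusted p = 0.0508), and neither were the biliary genes Spp1 (0.99 ± 0.34 (SE), adjusted p = 0.0805) and Muc1 (1.01 ± 0.35 (SE), adjusted p = 0.0805); each was called at 80 mg/kg, at 4.20, 2.07 and 2.09. Cyp1a1, a target of the aryl hydrocarbon receptor, read 2.78, 67.4, 2.25, 33.7 and 53.7 in controls and 107, 105, 92.4, 73.4 and 75.6 at 30 mg/kg, with every treated array above every control (2.58 ± 0.83 (SE), adjusted p = 0.0592).

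The cyclic AMP response element TGACGTCA, looked for on either strand after the values were seen, was in 3.16% of the 8980 promoter windows of genes tested, in 6.13% of those of the rises (16 of 261), in 1.2% of those of the falls (2 of 167) and in 2 of the 31 windows of rises that were lower at 80 than at 30 mg/kg, Slc25a25 and Retreg1.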
